A study of Mus musculus with 2 samples.

Results

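Macrophages clear dying cells through a set of secreted bridging proteins, surface receptors and intracellular adaptors. 9 genes of this apparatus, Gas6, Pros1, Mertk, Axl, Cd36, Stab1, Lrp1, Elmo1 and Dock1, were followed in single macrophages of the mouse small intestine. They were chosen by name, with earlier results of these data known, as 9 of the 27998 genes listed for each library. All 9 were present in both gene tables. The level of each gene was taken per library and lane, and was then set against the genotype, against detection of Timd4 in the same cell and against the epithelial transcripts Fabp1, Fabp6, Reg3b and Reg3g in the same cell.

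Cells came from 2 groups of mice, with 1 droplet library each. The WT group was male C57BL/6J mice from Janvier, and the CCR2-/- group was JAX strain #:004999, bred in-house; its sex is not stated, nor is the age of either group, and source and genotype cannot be told apart. CCR2-/- animals lack the chemokine receptor by which monocytes leave the bone marrow and replenish gut macrophages. In both groups 3-4 small intestines were pooled after removal of mucus and epithelium and digestion with Liberase TL, and live CD45+ CD11b+ MHCII+ CD64+ cells without CD3, TCRb, B220, SiglecF, Ly6C or Ly6G were sorted. The antibody against Ly6C in the exclusion mixture removes cells that still carry this monocyte protein. The WT cells were run on 2 lanes, which are technical parts of 1 sample and not replicates. Because each genotype has 1 pooled library, no test between genotypes was possible; the 95% intervals given below cover counting error only and not the spread between animals.

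Dying cells expose phosphatidylserine on their outer membrane. GAS6 and protein S (Pros1) bind it and bridge the corpse to the receptor tyrosine kinases MERTK and AXL, whereas TIM-4 (Timd4) and the scavenger receptors CD36 and stabilin-1 (Stab1) bind lipids of the dying cell more directly, and LRP1 takes up opsonised corpses. Engulfment signals then pass through ELMO1 and DOCK1, which together activate the small GTPase RAC1. In the gut, macrophages below the epithelium take up epithelial cells that die in the villus, and resident macrophages that are renewed independently of monocytes are marked by TIM-4.

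After cells with fewer than 200 genes or more than 10% mitochondrial UMIs (unique molecular identifiers, each standing for 1 captured transcript) were left out, 2612 CCR2-/- and 3016 WT cells remained. The median was 2439 UMIs per cell in CCR2-/- and 6129 in WT, so each cell was thinned at random to 1000 UMIs, which left out 196 CCR2-/- cells and 1 WT cell that were shallower. Levels are given as CPM, a gene's UMIs scaled to a fixed total of UMIs, and unless said otherwise come from the thinned profiles of 2416 CCR2-/- and 3015 WT cells (2109 of lane 1 and 906 of lane 2). Ccr2 had 50 UMIs in the whole CCR2-/- library (6.88 CPM of whole cells) and 6844 in WT (331 CPM). All 9 macrophage markers examined (Csf1r, Cd68, Fcgr1, Adgre1, C1qa, C1qb, C1qc, Cx3cr1 and Lyz2) were detected in both libraries, with C1qa in 88.6% of CCR2-/- and 94.3% of WT cells. The libraries also differed in stress transcripts: a list of 14 genes, 12 immediate-early and 2 heat-shock, summed to 27583 CPM in CCR2-/- and to between 8046 and 8248 CPM in the WT lanes. The 12 immediate-early genes were higher in CCR2-/- and the heat-shock genes Hspa1a (log2 -1.72) and Hspa1b (-0.88) lower. The part of this difference in the results below was not tested beyond the matched window given with them. Barcode sequences were shared by 5 cells between the WT lanes, by 6 between CCR2-/- and lane 1, and by 0 between CCR2-/- and lane 2.

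The promoters of 3 genes are shown first: Gas6 and Cd36, which had the highest ratios between the libraries, and Mertk, the receptor kinase with the higher ratio of the pair. The RefSeq windows (GRCm38.p6) run from 250 bases before to 50 after a start taken from RefSeq. They are written 5′ to 3′ on the gene's strand. All 9 genes had such a window, Elmo1 a pair of them. The Cd36 window lies inside the gene as placed below (17781690 to 17888801, minus strand), not at its outer start. Its letters therefore describe an internal start. Capitals mark matches, on either strand, to the GC box GGGCGG and the CCAAT box CCAAT.
Gas6 promoter, chr8:13494486-13494785, minus strand: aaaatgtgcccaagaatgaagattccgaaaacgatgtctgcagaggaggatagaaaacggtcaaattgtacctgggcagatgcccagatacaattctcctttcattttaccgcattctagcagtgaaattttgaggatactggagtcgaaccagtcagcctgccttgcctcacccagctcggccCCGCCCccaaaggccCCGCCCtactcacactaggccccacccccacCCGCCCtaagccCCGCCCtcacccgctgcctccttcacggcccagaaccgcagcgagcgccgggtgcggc
Cd36 promoter, chr5:17835847-17836146, minus strand: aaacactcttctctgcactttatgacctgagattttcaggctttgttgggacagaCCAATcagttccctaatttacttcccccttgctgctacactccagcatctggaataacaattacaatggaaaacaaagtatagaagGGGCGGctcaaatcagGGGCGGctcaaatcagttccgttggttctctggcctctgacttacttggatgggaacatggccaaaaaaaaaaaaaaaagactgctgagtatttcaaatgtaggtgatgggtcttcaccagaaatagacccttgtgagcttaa
Mertk promoter, chr2:128698665-128698964, plus strand: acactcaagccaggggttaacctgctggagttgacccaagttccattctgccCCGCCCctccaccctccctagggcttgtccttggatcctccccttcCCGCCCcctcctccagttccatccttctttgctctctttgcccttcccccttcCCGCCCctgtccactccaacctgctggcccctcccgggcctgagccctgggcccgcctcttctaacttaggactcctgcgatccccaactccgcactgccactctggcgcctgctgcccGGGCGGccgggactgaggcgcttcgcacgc
The windows of Gas6 and Mertk hold 4 GC boxes each and are 58.3% and 66.0% G or C, with 17 and 14 CpG dinucleotides. The Cd36 window holds 2 GC boxes, within a short tandem repeat, and 1 CCAAT box, and it is 43.0% G or C with 3 CpG dinucleotides. A GC box was present in 35.7% and a CCAAT box in 37.4% of all 32851 promoter windows of this length. None of the 3 windows held the AP-1 letters TGANTCA, the PU.1 letters GAGGAA, the C/EBP letters TTGCNNAA, the MAF letters TGCTGAC or the TATA box TATAAA, searched on both strands, which occur in 7.81%, 28.3%, 10.8%, 4.67% and 13.6% of all windows. A match is a description of letters and says nothing about binding.

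The bridging ligands were both higher in the CCR2-/- library. Gas6 (chromosome 8, 13465374 to 13494490, minus strand; coordinates here and below are those of protein-coding genes in GRCm38, GENCODE M21) stood at 271 CPM in CCR2-/-, 85.8 in WT lane 1 and 92.7 in WT lane 2. The WT lanes lay within each other's counting interval and the CCR2-/- value lay far above both. The ratio of CCR2-/- to WT was 3.08-fold, a log2 ratio of 1.62 (1.41 to 1.83) from 654 and 265 thinned UMIs. A Gas6 UMI was seen in 21.1% of thinned CCR2-/- cells and 7.63% of WT cells. Pros1 (chromosome 16, 62854307 to 62929346, plus strand), which encodes the second ligand and is also a plasma anticoagulant cofactor, was a low-level transcript at 38.5, 18.97 and 24.3 CPM in CCR2-/-, lane 1 and lane 2. Its interval in CCR2-/- (31.1 to 47.2) overlapped that of lane 2 (15.2 to 36.8) but not that of lane 1 (13.6 to 25.8). The Pros1 log2 ratio to the whole WT library was 0.90 (0.43 to 1.39).

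Of the receptor kinases, Mertk (chromosome 2, 128698956 to 128802894, plus strand) was at 94.4 CPM in CCR2-/-, 40.8 in lane 1 and 36.4 in lane 2. The intervals of CCR2-/- and of either lane did not overlap, and the log2 ratio was 1.26 (0.93 to 1.59), or 2.39-fold. Axl (chromosome 7, 25757273 to 25788705, minus strand), the related receptor that GAS6 engages, was at 282, 169 and 150 CPM in the same order. The intervals of CCR2-/- again lay clear of those of both lanes, but the step was smaller, with a log2 ratio of 0.79 (0.62 to 0.96). Tyro3, the remaining receptor of this family, had 0 thinned UMIs in CCR2-/- and 1 in WT and was not detectable at this depth beyond that.

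**Figure D1:**
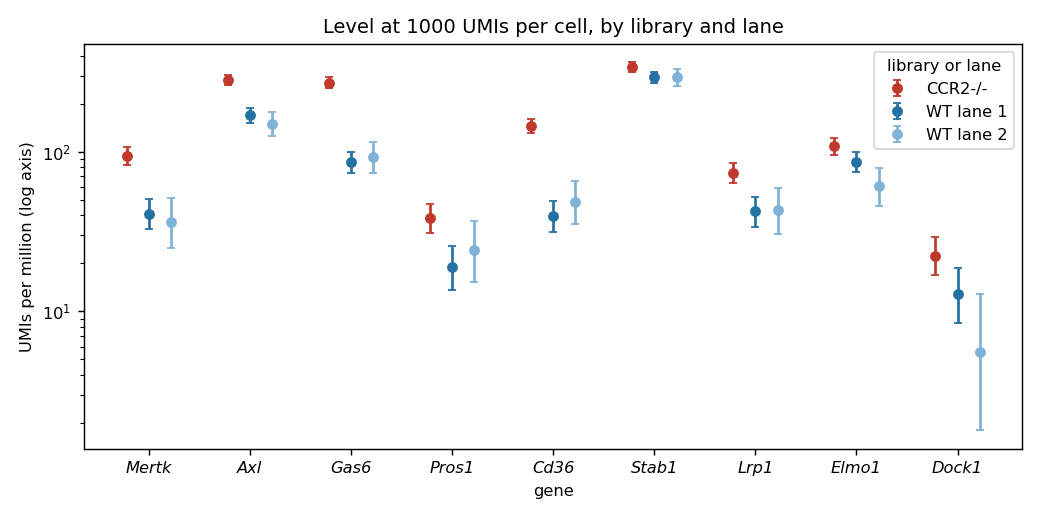
Level of each gene in CPM on a log axis, with every cell thinned to 1000 UMIs; points are the CCR2-/- library and the WT lanes, and bars are 95% Poisson intervals. Gas6, Cd36, Mertk, Axl and Lrp1 lie above both WT lanes in CCR2-/- with separate intervals, whereas Stab1 is nearly level (339 against 293 and 294); heights should be compared within a gene only.

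The scavenger receptors diverged. Cd36 (chromosome 5, 17781690 to 17888801, minus strand), a receptor for oxidised lipids and fatty acids, was at 145 CPM in CCR2-/-, 39.4 in lane 1 and 48.6 in lane 2. It had the highest ratio of the 9 genes, 3.44-fold, with a log2 ratio of 1.78 (1.49 to 2.09). Stab1 (chromosome 14, 31139013 to 31168641, minus strand) was at 339, 293 and 294 CPM, and its interval in CCR2-/- (316 to 363) overlapped that of lane 2 (259 to 331) and touched that of lane 1 (270 to 317). Its log2 ratio of 0.21 (0.07 to 0.35) was close to the median of 0.18 over all genes compared. Lrp1 (chromosome 10, 127538161 to 127621148, minus strand), an endocytic receptor that also binds calreticulin on corpses, was at 73.7 CPM in CCR2-/-, 42.2 in lane 1 and 43.0 in lane 2. The log2 ratio of Lrp1 was 0.80 (0.46 to 1.13).

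The engulfment adaptors were the least clear. Elmo1 (chromosome 13, 20090596 to 20608353, plus strand) was at 108 CPM in CCR2-/-, 86.3 in lane 1 and 60.7 in lane 2. The CCR2-/- interval (95.3 to 122) overlapped that of lane 1 (74.2 to 99.8) but not that of lane 2 (45.7 to 79.0), and the lanes themselves differed by a log2 ratio of -0.51 (-0.97 to -0.07). The log2 ratio of CCR2-/- to WT, 0.46 (0.20 to 0.72), was therefore no larger than the step between technical lanes. Dock1 (chromosome 7, 134670654 to 135173639, plus strand), the exchange factor that ELMO1 partners, was at 22.4, 12.8 and 5.52 CPM. Its mean over the libraries was below 20 CPM, the minimum for counting a gene as compared, so its log2 ratio of 1.07 (0.42 to 1.75) from 54 and 32 UMIs is given as a value only; a second random thinning gave 0.42.

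A gene was counted as higher or lower when its ratio passed 1.5-fold and its mean level was at least 20 CPM. 8 of the 9 genes met the level minimum, and 6 of these (Gas6, Pros1, Mertk, Axl, Cd36 and Lrp1) were higher in CCR2-/-, with 0 lower. Over all 5344 genes compared, 23.7% were higher and 14.5% lower by the same rule. The 9 genes were chosen with earlier results of these data known, which limits this comparison. The median log2 ratio was 0.85 over the 8 genes and 0.18 over all genes. Scaling by median-of-ratios size factors, which centres all genes near 0, lowered each ratio by about 0.18, to 1.60 for Cd36 and 0.03 for Stab1, and left 6 genes higher. The share of all genes was not computed at that scaling. Between the WT lanes, 0 of the 8 genes passed 1.5-fold in either direction, where 1.87% of 5034 genes were higher in lane 2 and 8.42% lower. Against lane 1 alone 6 genes were higher in CCR2-/- (21.6% of all genes higher, 13.9% lower), and against lane 2 alone 7, with Elmo1 added (32.3% and 16.9%). In cells gated on C1q transcripts, described with co-detection, 6 were higher (25.3% and 14.7%).

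Some of these ratios were smaller in cells matched for depth or for stress transcripts. In whole cells of 2000 to 4000 UMIs, where the medians were 2824 in CCR2-/- and 2940 in WT, 3 genes remained past 1.5-fold: Mertk (log2 0.88), Gas6 (0.76) and Cd36 (1.45). In that window 14.7% of all genes were higher and 11.7% lower. Axl was at 0.50, Lrp1 at 0.37 and Pros1 at 0.25, below the threshold. Elmo1 was at 0.05 and Dock1 at 0.19. The Stab1 log2 ratio changed sign to -0.18 (-0.31 to -0.04). Among cells with 10 to 19 thinned UMIs of the stress list (539 CCR2-/- and 746 WT cells), the log2 ratios were 1.34 for Mertk, 0.87 for Axl, 1.13 for Gas6, 1.497 for Cd36 and 0.62 for Lrp1 (-0.07 to 1.31), all past 1.5-fold, and 0.38 for Pros1, which was not. There 20.6% of all genes were higher and 16.4% lower. Mertk, Gas6 and Cd36 thus kept the same side of the threshold in both windows. The depth window and the stress window were chosen by cell properties, so neither stands for the whole library. The stress window took opposite tails of the libraries: 69.6% of CCR2-/- cells lay above it and 69.4% of WT cells below it.

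**Figure D2:**
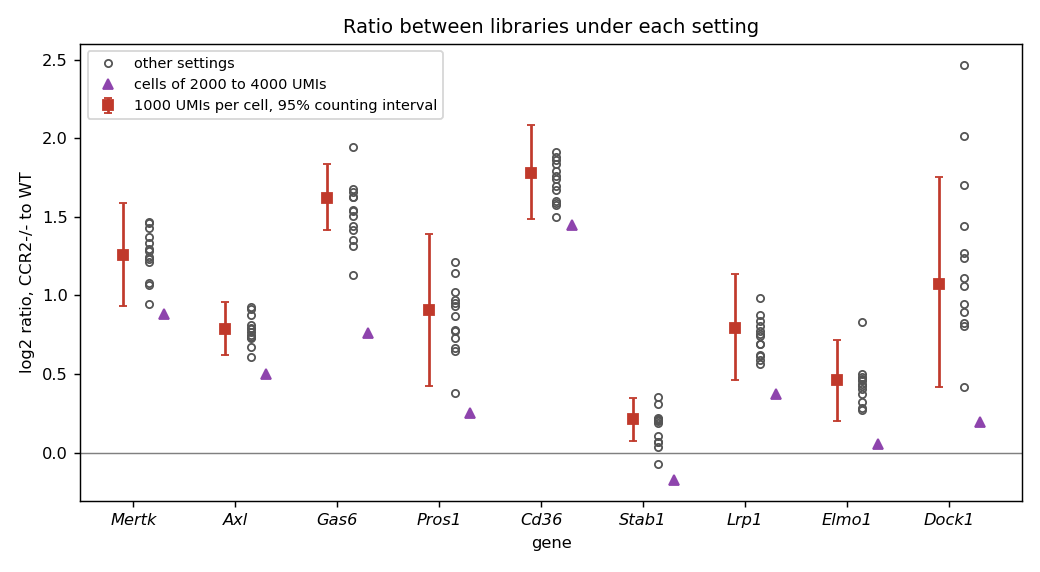
The log2 ratio of CCR2-/- to WT for each gene under the main setting (squares with 95% counting intervals), in whole cells of 2000 to 4000 UMIs (triangles) and under the other settings (circles). Gas6 drops from 1.62 to 0.76 and Stab1 from 0.21 to -0.18 in the depth window, while Cd36 stays at or above 1.45 under every setting plotted.

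The same genes were also set against the stress list within each library. In CCR2-/-, Gas6 was at 319 CPM in cells with 20 or more stress UMIs (1682 cells) and 113 in those with fewer than 10 (195 cells). The log2 ratio was 1.501 for Gas6 (0.89 to 2.19) and 0.86 for Cd36 (0.17 to 1.63). In WT the same contrast (178 against 2091 cells) gave -0.11 for Gas6 (-0.97 to 0.65) and -1.06 for Cd36 (-2.96 to 0.34). The difference between libraries in this contrast was not tested. Mertk was at 0.57 in CCR2-/- and 0.48 in WT, and both intervals included 0. By the 1.5-fold rule 2 of 8 genes, Gas6 and Cd36, were higher and 0 lower in CCR2-/-, beside 25.0% and 18.9% of all genes. The 2 of 8 higher is near the share over all genes and is no result about these genes as a set. In WT 0 of 7 were higher and 2, Cd36 and Stab1, lower, beside 21.8% and 12.7%.

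Other genes of corpse clearance did not follow the 9 genes as a block. Of 7 further bridging molecules and opsonins compared, 1 was higher in CCR2-/- and 3 were lower: thrombospondin-1 (Thbs1, log2 1.48) was higher, while C1qa (-0.68), C1qb (-1.36) and galectin-3 (Lgals3, -1.31) were lower. C1qc went the other way from C1qa and C1qb, at 0.28, which did not pass 1.5-fold. Of 12 further receptors, 3 were higher and 0 lower, namely Timd4 (2.23), the lipid-binding receptor Cd300lf (1.84) and the integrin subunit Itgav (0.91). Of 13 further engulfment and signalling genes, Crk was higher and Rac2 (-0.75) and the adaptor Tyrobp (-0.93) were lower. Of 15 genes of corpse digestion and the lipid-sensing nuclear receptor response, 4 were higher and 0 lower. These were the receptor subunit Rxra (1.78), the cholesterol exporters Abca1 (1.29) and Abcg1 (1.54), and Mylip (1.55), which encodes an LXR-induced ubiquitin ligase. Of all genes, 23.7% were higher and 14.5% lower, so the 4 of 15 and 3 of 12 higher are near the share over all genes and are no result about those lists. The medians of the 4 lists were -0.58, 0.18, 0.01 and 0.21, against 0.18 over all genes. Rxra, Abca1, Abcg1 and Mylip were at log2 ratios of 0.99, 0.68, 1.13 and 1.16 in cells of 2000 to 4000 UMIs. In that window C1qa (-0.28), C1qb (-0.55), Rac2 (-0.24) and Crk (0.42) did not pass 1.5-fold, while C1qc (0.66) did. Lgals3 (-0.85), Tyrobp (-0.65), Thbs1 (1.02), Timd4 (1.74), Cd300lf (1.70) and Itgav (0.66) stayed past it.

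To see which macrophages carried each gene, the cells of each library were clustered without the 9 genes, and clusters are named here by their leading genes. 8 WT clusters and 6 CCR2-/- clusters had at least 50 cells. Cluster levels are CPM of whole cells, so they are weighted towards deeper cells. In WT, Gas6 was highest in the cluster led by Cd163, Cbr2 and F13a1 (490 cells), at 180 CPM, and lowest in the cluster led by Plac8, S100a6 and Ccl17 (565 cells, where Ccr2 was at 780 CPM), at 15.2 CPM. The Cd163 cluster held 34.5% of all WT Gas6 UMIs, 41.1% of Cd36 UMIs and 26.8% of Pros1 UMIs in 16.2% of the cells. Cd36 was at 120 CPM there and at 6.60 in the cluster led by Ccl24, Wnt4 and H2-M2 (576 cells).

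In CCR2-/- the same genes were also concentrated in few clusters. Gas6 was at 531 CPM in the cluster led by Ccl2, Fam43a and Igfbp4 (623 cells), at 313.5 in the cluster led by Ccl12, Mt2 and Alox5ap (427 cells, with F13a1, Cbr2, Cd163 and Pf4 also among its leading genes), and at 88.9 in the cluster led by Slc7a11, Gm12840 and H2-M2 (518 cells). Cd36 was at 283, 316 and 11.3 CPM in these clusters, so that the first and second together held 41.6% and 43.2% of all Cd36 UMIs of the library. Pros1 followed the same order at 61.3, 45.1 and 14.6 CPM.

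Mertk was distributed differently. In WT it was highest in the cluster led by Thbs1, Pgf and Cxcl2 (219 cells), at 89.6 CPM (73.0 to 109), followed by the Ccl24 cluster at 56.1 (48.7 to 64.4), and it was at 34.7 in the Cd163 cluster. In CCR2-/- it was at 124 (106 to 144) in the cluster led by Rsad2, Cxcl9 and Gas1 (582 cells). It was at 123 (107 to 140) in the Slc7a11 cluster and 107 (90.8 to 125) in the Ccl2 cluster, where Gas6 was highest. These intervals overlapped, and the Ccl12 cluster was lower, at 60.1 (48.0 to 74.4). Stab1 was lowest in the Plac8 cluster of WT, at 79.9 CPM, against 463 in the Cd163 cluster. Axl was flatter, from 125 to 206 CPM over the WT clusters and from 230 to 300 over the 5 CCR2-/- clusters of at least 50 cells that kept all 9 macrophage markers. Lrp1 ranged from 37.1 to 52.1 CPM over the WT clusters, and Elmo1 from 60.9 to 101.

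**Figure D3:**
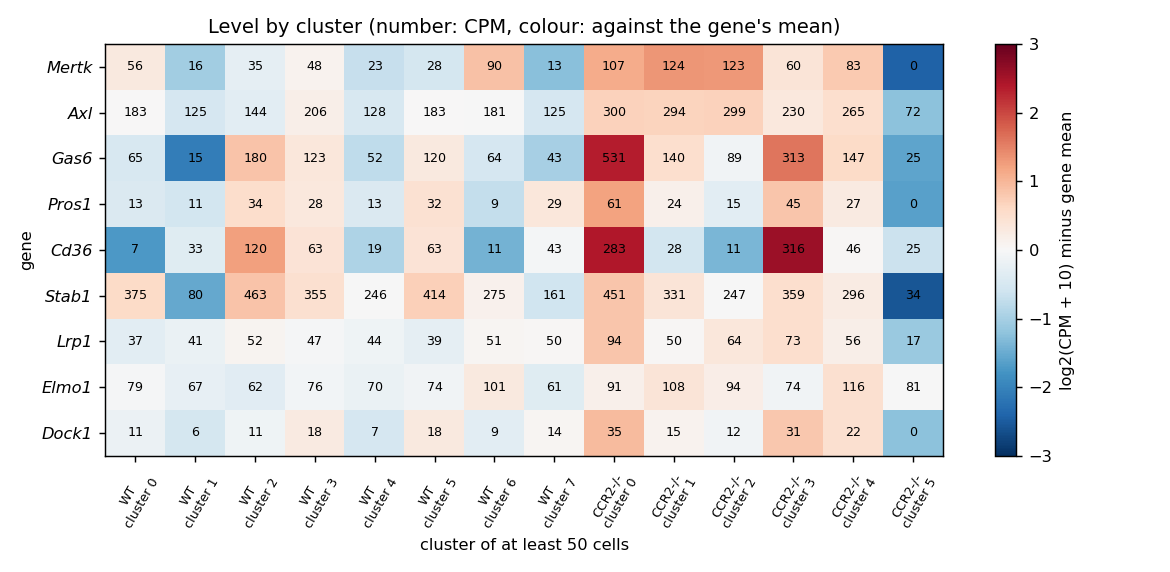
Level of each gene in clusters of at least 50 cells in each library: numbers are CPM of whole cells and colour is log2(CPM + 10) minus the gene's mean over clusters. Gas6 and Cd36 are high in WT cluster 2 (Cd163) and CCR2-/- clusters 0 (Ccl2) and 3 (Ccl12). Mertk is high in WT cluster 6 (Thbs1) and in CCR2-/- clusters 0, 1 and 2. CCR2-/- cluster 5 kept 3 of 9 macrophage markers.

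A small CCR2-/- cluster of 38 cells, led by Igfbp7, Dcn and Sparc and with 4 fibroblast and 1 endothelial marker among its 10 leading genes, kept 0 of the 9 macrophage markers. It held 19.7% of the CCR2-/- Pros1 UMIs, at 397 CPM, but 2.14% of Gas6, 5.78% of Cd36 and 0.711% of Mertk UMIs. The fibroblast list (6 of 6 genes detected in both libraries) summed to 153 thinned CPM in CCR2-/- and to 35.6 and 11.0 in the WT lanes, and the endothelial list (6 of 6 genes in both) to 205 in CCR2-/- and 57.8 and 57.4 in the lanes, where Cldn5 and Plvap were at 0 in lane 1. The erythroid list (4 of 4 genes in both) differed more, also between the lanes, at 3325 in CCR2-/- and 478 and 3.31 in the lanes; its part in the results was not tested. Without cells carrying 2 or more UMIs of fibroblast, endothelial, lymphoid or epithelial markers, the log2 ratio was 0.77 for Pros1, 1.54 for Gas6, 1.74 for Cd36 and 1.28 for Mertk, so all 4 stayed past 1.5-fold.

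Genes with a similar profile over these clusters were ranked by the lower of the Pearson correlations in WT (8 clusters) and in CCR2-/- (6 clusters), over 2290 genes. The clusters of a library share its preparation and depth, and the values are descriptions only. For Gas6 the most similar genes were Nrp1 (r = 0.98 in WT and 0.99 in CCR2-/-), Cd300ld and P2rx7. For Cd36 they were Ccnd1 (0.97 and 0.99), Ccl2 and Igfbp4. For Stab1 they were Dram2 (0.98 and 0.98), Cx3cr1 (0.96 and 0.99) and Sepp1 (0.96 and 0.96), and without the CCR2-/- cluster with few macrophage markers the CCR2-/- values were 0.85, 0.89 and 0.65. For Mertk they were Gpr65 (0.98 and 0.96), P2rx4 (0.96 and 0.996) and Il4ra, but without the same cluster the CCR2-/- value of Gpr65 was -0.37, while that of P2rx4 was 0.98. Among the 9 genes, Gas6 and Stab1 had r = 0.93 in WT and 0.89 in CCR2-/-, whereas Mertk and Cd36 had -0.38 and 0.14. These CCR2-/- values include the cluster with few macrophage markers and were not computed without it. Mertk was at 0, Gas6 and Cd36 at 25.4 and Stab1 at 33.9 CPM in that cluster.

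Per cell, detection of these genes was sparse. Among cells with at least 5 thinned UMIs of C1qa, C1qb and C1qc together (1992 CCR2-/- and 2588 WT cells, here called C1q-gated), 29.1% of CCR2-/- cells and 48.2% of WT cells had a UMI of 0 of the 9 genes. Gas6 and Cd36 were found together in 87 CCR2-/- cells where 50.7 would be seen if detection of either were independent of the other, a ratio of 1.72 (1.38 to 2.12). The corresponding WT numbers were 12 and 7.38, with an interval of 0.84 to 2.84 for the ratio. Stab1 and Lrp1 were found together 1.48 times as often in CCR2-/- (1.12 to 1.92) and 1.07 times in WT (0.71 to 1.55). Mertk and Axl, receptors of a shared ligand, had a ratio of 0.997 in CCR2-/- (0.72 to 1.34) and 1.24 in WT (0.75 to 1.93). Mertk and Gas6 had ratios of 0.82 and 1.25, with intervals that included 1.

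Lymphoid cells gave a measure of free RNA. In the 26 CCR2-/- and 16 WT cells with lymphoid markers and at most 1 C1q UMI (median depths 2328.5 and 9178 UMIs), Mertk, Pros1, Cd36, Stab1, Lrp1 and Dock1 had 0 thinned UMIs in both libraries, which allows a share of up to 11.5% of CCR2-/- and 18.8% of WT cells if 3 counts are taken as the limit (the exact 95% upper bounds are 13.2% and 20.6%). Stab1 was detected in 27.6% of C1q-gated CCR2-/- cells and 25.4% of WT cells, above those limits. Gas6 was detected in 21.8% of C1q-gated CCR2-/- cells against 0 of 26 lymphoid cells, but in WT 7.69% stood beside 1 of 16. Axl was detected in 24.6% of C1q-gated CCR2-/- cells against 0 of 26, but in WT 14.8% stood beside 12.5%. Elmo1, which lymphocytes also express, was detected in 15.4% of CCR2-/- lymphoid cells and 10.0% of C1q-gated ones, and in WT in 12.5% and 7.38%. For Mertk, Pros1, Cd36, Lrp1 and Dock1, the share in C1q-gated cells was below the exact upper bound for 0 of so few lymphoid cells (Cd36 in CCR2-/-, at 11.6%, lay between the bounds), and a background of that size could not be told apart from it.

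Detection of the deleted receptor split the WT cells further. WT cells with a Ccr2 UMI in the whole cell (1323 cells) were set against those without (1692 cells), both thinned. Mertk was at 27.2 and 49.1 CPM, a log2 ratio of -0.85 (-1.46 to -0.27). Stab1 was at 212 and 356, a ratio of -0.75 (-0.96 to -0.54), and Gas6 at 65.0 and 106, a ratio of -0.70 (-1.09 to -0.32). Axl stood at -0.28 (-0.55 to -0.02). Cd36 (0.29), Lrp1 (0.40), Pros1 (-0.31), Elmo1 (-0.12) and Dock1 (0.35) had intervals that included 0. In all, 3 of 8 genes were lower by 1.5-fold in Ccr2-detected cells and 0 higher, beside 7.90% and 4.18% of all genes. Against WT cells without a Ccr2 UMI, the CCR2-/- library kept log2 ratios of 0.94 for Mertk, 1.36 for Gas6 and 1.91 for Cd36, while Stab1 was at -0.072 (-0.23 to 0.08). In that comparison 6 of 8 genes were higher and 0 lower, beside 21.3% and 13.8% of all genes. Without the Ccr2-detected WT cells, the Stab1 interval thus included 0, from a ratio that was already close to the median over all genes. The ratios of Mertk, Gas6 and Cd36 stayed past 1.5-fold.

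Timd4, the TIM-4 receptor gene, stood at 174 thinned CPM in CCR2-/- and 37.1 in WT. With Timd4 detected in the thinned profile, 373 CCR2-/- cells were set against 2043 without it, and 0 of 8 genes passed 1.5-fold in either direction, beside 6.55% of all genes higher and 7.09% lower. Cd36 was at 105 and 152 CPM, a log2 ratio of -0.54 (-1.06 to -0.06), and Mertk at 91.2 and 94.96, a ratio of -0.06 (-0.63 to 0.47). Among C1q-gated CCR2-/- cells Cd36 alone was lower, beside 7.64% of all genes lower and 8.14% higher. In WT, 103 cells with Timd4 were compared with 2912 without. Mertk, Axl, Gas6 and Cd36 were higher by 1.5-fold and Elmo1 lower, which is 4 and 1 of 8, beside 24.4% and 13.0% of all genes. All 8 intervals in WT included 0, and between 2 and 41 UMIs stood in the Timd4-detected cells for each gene, so these calls were not separable from counting error.

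Whole cells gave more counts for the same question. In WT, cells with a Timd4 UMI (445) and without (2571) had nearly equal median depths of 6154 and 6119 UMIs. Mertk was at 54.0 and 31.8 CPM, a log2 ratio of 0.76 (0.51 to 1.01), and was 0.73 in lane 1 and 0.83 in lane 2. Stab1 was at 390 and 253, a ratio of 0.62 (0.53 to 0.72), with 0.61 and 0.66 in the lanes. These 2 were past 1.5-fold, of 7 genes that met the level minimum, beside 2.98% of all genes higher and 1.61% lower. With the same cells thinned, Mertk alone stayed past 1.5-fold, at 1.09 (0.45 to 1.69), 1 of 8 genes beside 8.59% of all genes higher and 5.50% lower, and Stab1 was at 0.49 (0.24 to 0.73). Axl was at 0.20 (0.06 to 0.33), Pros1 at 0.20, Elmo1 at 0.06 and Lrp1 at -0.04. Cd36 was at -0.26 (-0.56 to 0.03). Ccr2 itself was at 102 CPM in Timd4-detected WT cells and 372 in the others.

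In CCR2-/-, the cells with a Timd4 UMI (815) were deeper than those without (1797), at medians of 3014 and 2189 UMIs. Mertk was at 110 and 89.5 CPM, a log2 ratio of 0.29 (0.07 to 0.51), and Stab1 at 344 and 301, a ratio of 0.19 (0.07 to 0.31). Cd36 was the reverse, at 105 and 160, a ratio of -0.61 (-0.82 to -0.41), and was the only gene of 9 past 1.5-fold, beside 0.716% of all genes higher and 2.11% lower. Pros1 was at -0.58 (-0.98 to -0.20), which turned to 0.24 (-0.41 to 0.87) when the same cells were thinned. The 38 cells of the cluster with fibroblast markers, where Timd4 was at 0 CPM, all fell among the cells without Timd4. They held 5.78% of the Cd36 and 19.7% of the Pros1 UMIs of the library, and these whole-cell ratios were not computed without them. In cells of 2000 to 4000 UMIs (376 against 675; 2.62% of all genes higher and 4.26% lower), the Cd36 ratio was -0.80 (-1.12 to -0.50) and the Mertk ratio 0.02 (-0.32 to 0.36). Cd36 was thus lower in Timd4-detected CCR2-/- cells on each of these scales.

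**Figure D4:**
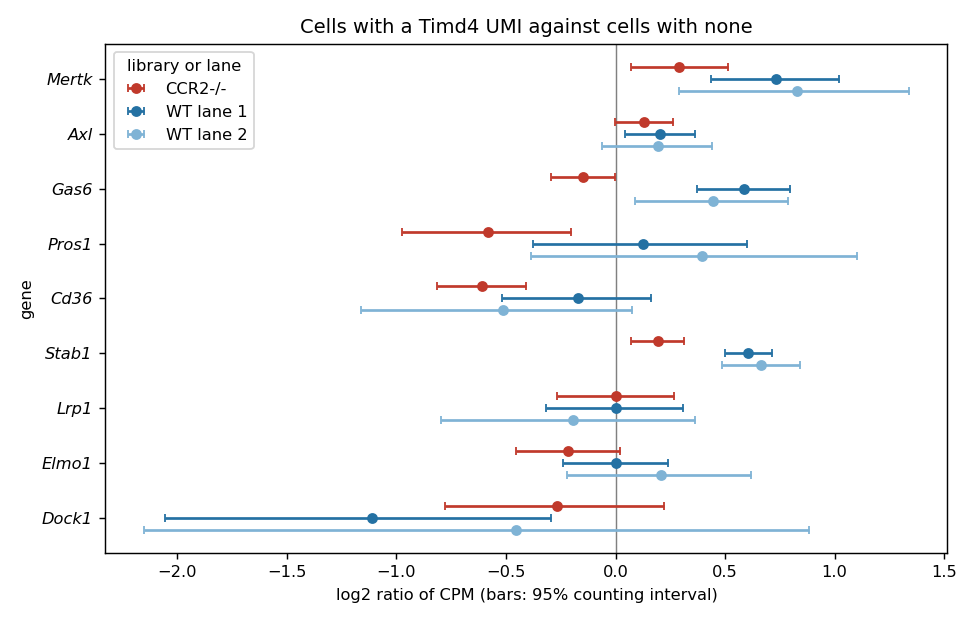
The log2 ratio of whole-cell CPM in cells with a Timd4 UMI to cells with none, for the CCR2-/- library and each WT lane, with 95% counting intervals. Mertk and Stab1 lie above 0 in the library and in both lanes, Cd36 lies below 0 in CCR2-/- (-0.61), and Gas6 lies above 0 in both WT lanes and just below it in CCR2-/- (-0.15).

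Gas6 was in opposite order in the libraries, at 222 and 246 CPM with and without Timd4 in CCR2-/- (log2 ratio -0.15, -0.29 to -0.00) and at 101 and 69.3 in WT (0.55, 0.36 to 0.73). With the same WT cells thinned the WT ratio was -0.09 (-0.64 to 0.41). The genotype comparison within Timd4-detected cells (whole-cell detection, 792 CCR2-/- and 445 WT cells, thinned) gave log2 ratios of 1.62 (1.11 to 2.16) for Gas6, 1.28 (0.54 to 2.08) for Cd36 and 0.83 (0.45 to 1.22) for Axl. Mertk was at 0.58 (-0.02 to 1.21) there and at 1.38 (0.98 to 1.78) in cells without Timd4. Stab1 was at -0.15 (-0.43 to 0.13) and 0.27 (0.11 to 0.44). In Timd4-detected cells 5 genes were higher and 0 lower, beside 23.6% and 17.5% of all genes, and in the others 6 and 0, beside 25.0% and 14.5%. Whether the 2 sets of cells differ was not tested. Gas6 and Cd36 were thus higher in CCR2-/- also among Timd4-detected cells alone.

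Epithelial transcripts in macrophages can come from uptake of epithelial cells, from attached cells or from free RNA, and the counts here do not tell these apart. Fabp1, Fabp6, Reg3b and Reg3g, which encode lipid-binding and antimicrobial proteins of enterocytes, summed to 53.8 thinned CPM in CCR2-/-, 178 in WT lane 1 and 121 in lane 2. Lane 1 and lane 2 of the same sample differed by more than their intervals (161 to 197 and 99.8 to 146). These intervals take UMIs as independent, which they were not. Cells with at most 1 C1q UMI held 178 of the 376 UMIs in lane 1 (79 cells, 7.59% of them with any). They held 22 of 110 in lane 2 (35 cells) and 47 of 130 in CCR2-/- (138 cells). In C1q-gated cells the sums were 36.6 in CCR2-/-, 104 in lane 1 and 103 in lane 2. 0 epithelial UMIs were found in the 26 CCR2-/- and 16 WT lymphoid-gated cells, which allows shares of up to 11.5% and 18.8% by the same limit of 3 counts, beside 2.96% of C1q-gated CCR2-/- cells and 5.64% of WT cells with at least 1.

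With 3 or more thinned epithelial UMIs, 5 CCR2-/- cells and 29 WT cells remained, too few for the 9 genes, which had 0 or 1 UMI each in the former and 0 to 8 in the latter. By the 1.5-fold rule 2 of 7 genes were higher and 4 lower in CCR2-/-, beside 36.2% and 54.2% of all genes, and 4 of 9 higher and 3 lower in WT, beside 43.0% and 19.9%. Gas6 had 0 UMIs in both sets, and its interval reached a log2 ratio of 1.44 in CCR2-/- and 0.52 in WT.

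Whole cells with at least 1 epithelial UMI were more numerous, 186 of CCR2-/- and 590 of WT, and deeper than the rest, at medians of 3386 against 2376.5 and 8109 against 5673.5 UMIs. Gas6 was at 189 and 242 CPM in CCR2-/-, a log2 ratio of -0.36 (-0.64 to -0.10), and at 58.0 and 79.4 in WT, a ratio of -0.45 (-0.64 to -0.27). The lanes gave -0.51 (-0.73 to -0.29) and -0.29 (-0.66 to 0.06). Cd36 was at -0.03 in CCR2-/- and -0.47 (-0.72 to -0.22) in WT, where lane 2 was at -1.23 (-1.90 to -0.62) and lane 1 at -0.27 (-0.56 to 0.00). Mertk (-0.02 and -0.18), Axl (0.03 and -0.10), Stab1 (-0.21 and 0.04), Lrp1 (0.03 and -0.03), Elmo1 (-0.02 and -0.03), Pros1 (0.19 and -0.30) and Dock1 (-0.03 and 0.12) had intervals that included 0 in both libraries. 0 genes passed 1.5-fold in either library, beside 3.99% of all genes higher and 4.70% lower in CCR2-/- and 0.523% and 0.342% in WT. With 1 or more epithelial UMIs in thinned profiles instead (70 CCR2-/- and 168 WT cells), Mertk (0.90) and Pros1 (0.59) were higher in CCR2-/-, 2 of 8 genes with 0 lower, beside 26.4% and 19.5% of all genes. In WT 3 of 8, Mertk (0.64), Pros1 (1.11) and Lrp1 (0.67), were higher and 2, Gas6 (-0.59) and Elmo1 (-1.18), lower, beside 14.8% and 11.7%. The intervals of these ratios included 0 except that of Elmo1 in WT (-2.64 to -0.04). No gene was thus higher beyond counting error in cells with epithelial UMIs on either scale. Gas6 was lower beyond it in whole cells of both libraries, which were not matched for depth, but not in lane 2 alone. Cd36 was so in whole WT cells only. In thinned cells Gas6 was not lower by 1.5-fold in CCR2-/-, and in WT its interval included 0.

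**Figure D5:**
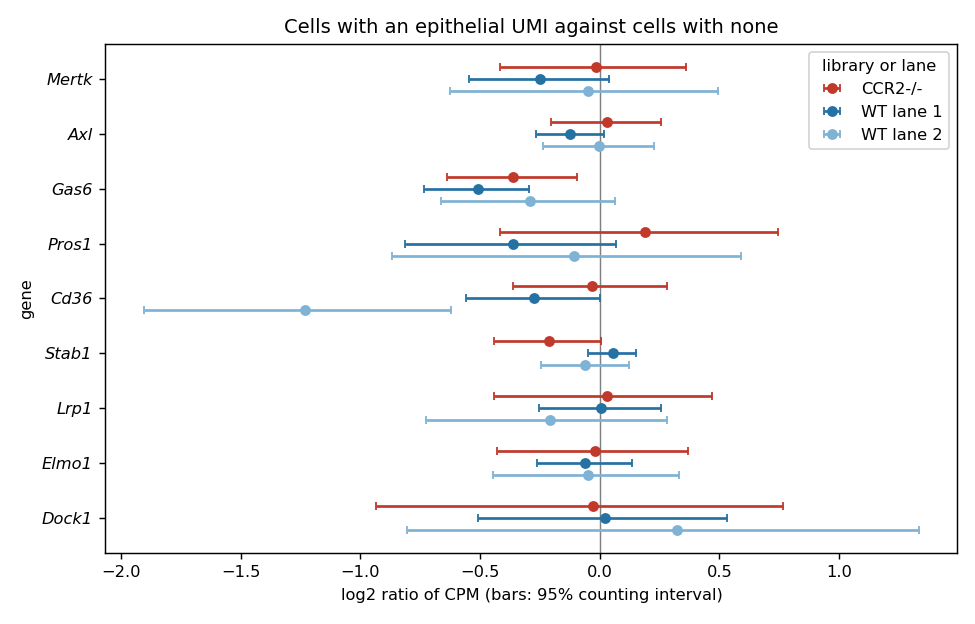
The log2 ratio of whole-cell CPM in cells with at least 1 epithelial UMI to cells with none, for the CCR2-/- library and each WT lane, with 95% counting intervals. Gas6 lies below 0 throughout (-0.36, -0.51 and -0.29), with an interval that includes 0 in lane 2. Cd36 is at -1.23 in lane 2, and the other genes have intervals across 0.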

How the data were processed

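Per the labels, libraries were made with the single cell 3′ v2 chemistry. Cell Ranger 3.0.1 and mm10 are named in the submitters' processing notes, with no settings. The values the authors deposited are raw UMI counts, not normalised, for each cell and gene. The 3′ chemistry counts transcript ends, so levels are not comparable between genes. Counts were read with Python 3.11.15 and scipy 1.17.1. Cells under 200 genes or over 10% mitochondrial UMIs were dropped, and the rest thinned without replacement to 1000 UMIs. Ratios carry exact conditional binomial intervals, levels Poisson intervals and shares Clopper-Pearson intervals (limits for a share of 0 use 3 counts), all at 95% and for counting error only. Called means at least 1.5-fold with a mean of at least 20 CPM, applied to all genes. The scripts were tested on simulated data.

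Doublets were kept. Scrublet's automatic threshold (scanpy 1.11.5) marked 6, 0 and 6 cells of CCR2-/-, lane 1 and lane 2, so as an alternative the highest scores were removed up to 0.8% per 1000 cells (55, 36 and 7 cells). Clusters used 2000 variable genes without the 9 genes, 30 principal components, 15 neighbours and Leiden (leidenalg 0.10.2) at resolution 0.8. Leading genes had at least 50 CPM and the highest fold over the other cells; a macrophage marker counted as kept at no less than its level in the other cells divided by 3. Likeness used log2(CPM + 10) over genes of at least 50 CPM.

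The named genes were the 9 genes, Ccr2, Timd4, the epithelial genes, at most 12 further pathway genes with values (the largest changes past 1.5-fold) and 3 similar genes each for Mertk, Gas6, Stab1 and Cd36; others were named after their values were seen. The 9 genes and all lists were chosen with earlier results of these data known. Clec7a, Trbc1, Trbc2, Igj and Defa30 of the lists were not analysed here. Alternatives were thinning to 2000 UMIs, none, a depth window, other scaling, stricter cells, other gates and a 2-fold threshold. Comparisons within Timd4 and epithelial classes in whole cells, the Ccr2 split, the stress window, a second thinning and the monocyte limit were chosen after seeing the data.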

Additional observations from a re-analysis of the deposited data

Results flagged for a closer look

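The Gas6 contrast by Timd4 in whole cells pointed in opposite directions in the libraries: the log2 ratio of Timd4-detected to other cells was -0.1468 in CCR2-/- and 0.5469 in WT, where both lanes were above 0. The difference between the libraries was not tested. When the same WT cells were thinned to 1000 UMIs the WT value was -0.09, with an interval of -0.64 to 0.41 that leaves its sign undetermined.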

How the results depend on the processing

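The number of genes higher in CCR2-/- was 3 in cells of 2000 to 4000 UMIs (14.7% of all genes) and 6 in the main setting (23.7%). It was 3 at a 2-fold threshold, for which no share of all genes was computed. Under the other settings it lay between 5 and 7, and 0 genes were lower under any. The Stab1 ratio reversed to -0.18 in the window of 2000 to 4000 UMIs. Against WT cells without a Ccr2 UMI it was -0.072, with an interval that included 0. Of the other 124 values of single genes in that comparison, 102 moved less than their counting interval and 22 moved more. In Timd4-detected CCR2-/- cells the number of genes lower was 0 in the main setting, 1 with whole-cell detection, in C1q-gated cells, without thinning and in cells of 2000 to 4000 UMIs, and 2 under the stricter cell filter. In WT the number higher was 4, but 1 with whole-cell detection and 2 after thinning to 2000 UMIs, without thinning and in the depth window; the number lower was 1, but 0 with whole-cell detection, after thinning to 2000 UMIs, in C1q-gated cells and without thinning. For 3 or more epithelial UMIs, CCR2-/- had 2 higher and 4 lower, but 1 higher after thinning to 2000 UMIs, 1 higher and 7 lower under the stricter filter, 0 lower with 1 or more epithelial UMIs, and 0 and 0 in whole cells; WT had 4 higher and 3 lower, but 1 higher after thinning to 2000 UMIs, 2 higher and 5 lower without cells bearing epithelial markers, and 0 and 0 in whole cells. Causes were not tested. Depth limits the Timd4 and epithelial contrasts in thinned cells, where most intervals include 0. No paired analysis was possible because each genotype has 1 library.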
